A study of Homo sapiens with 10 samples.

Results

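The transcripts described here are those of the 37 genes of the human mitochondrial genome, chosen as the genes whose symbol starts with MT- among the 62709 genes with values in the count table. They are 13 mRNAs for subunits of the respiratory chain and the ATP synthase, 2 rRNAs and 22 tRNAs, and all 37 are in the table. They were measured by total RNA sequencing in H441, an established line of human lung adenocarcinoma cells. The cells differ in TET1, a dioxygenase that acts on 5-methylcytosine, which had been removed or added.

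The 10 libraries fall into 4 groups, all of H441. In the knockout group (KO, libraries 1 to 3), TET1 had been knocked out of the wild-type line by CRISPR-Cas9, and the labels do not say whether the cells were 1 clone. In the overexpression group (OE, libraries 1 and 2), cells had received full-length human TET1 on a plasmid by transient transfection. A further pair of libraries (Lipo 2 and Lipo 3) has titles with the word Lipo, which the labels do not explain, and the labels put it under wild type with no treatment. The wild-type group (WT, libraries 1 to 3) was untreated. Nothing in the labels ties replicates to separate cultures, and p-values then measure only the spread between these libraries, which may be technical.

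Human mitochondrial DNA is a small circle that is transcribed along both strands into long precursors, which enzymes cut mainly at the tRNAs to release the rRNAs and mRNAs. Transcription in the heavy-strand direction gives both rRNAs, most tRNAs and every mRNA except MT-ND6, which comes from the opposite, light-strand precursor together with a few tRNAs. Much of that light-strand RNA is noncoding and is known to be degraded by a complex of the helicase SUPV3L1 and the exonuclease PNPT1. Here the genes annotated on the plus strand of chrM are called heavy-strand genes, and MT-ND6 and 8 tRNAs, annotated on the minus strand, are called light-strand genes.

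The sequences of 4 members show how the strands differ in base composition and where genes overlap. In the first 3 lines, which give the first 120 bases of each gene, capitals mark guanine. In the last line, capitals mark the 46 bases that MT-ATP8 shares with the start of MT-ATP6, for which reads cannot be given to 1 gene with certainty. All are from GENCODE release 29 (GRCh38) and are written 5′ to 3′ along the RNA: MT-ND6 is chrM:14554-14673 on the minus strand, MT-CO3 chrM:9207-9326, MT-ND3 chrM:10059-10178 and MT-ATP8 chrM:8453-8572, all 3 on the plus strand.
MT-ND6: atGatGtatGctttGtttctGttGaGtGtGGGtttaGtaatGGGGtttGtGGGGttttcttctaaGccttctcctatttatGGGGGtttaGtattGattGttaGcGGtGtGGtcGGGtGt
MT-CO3: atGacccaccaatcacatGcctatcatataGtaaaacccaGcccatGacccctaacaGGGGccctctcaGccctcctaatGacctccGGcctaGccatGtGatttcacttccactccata
MT-ND3: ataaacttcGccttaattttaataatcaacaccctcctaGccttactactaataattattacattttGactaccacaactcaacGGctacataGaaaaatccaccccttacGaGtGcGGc
MT-ATP8: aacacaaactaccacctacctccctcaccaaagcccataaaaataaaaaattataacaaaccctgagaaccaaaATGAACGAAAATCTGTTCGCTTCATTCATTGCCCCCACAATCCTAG

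The first 120 bases hold 40 guanines in MT-ND6, 16 in MT-CO3 and 11 in MT-ND3. Over the whole gene, MT-ND6 is 35.6% guanine and 7.05% cytosine. The 12 heavy-strand mRNAs are 6.28% to 16.2% guanine (median 11.2%) and 29.5% to 36.0% cytosine. In the sum of both bases MT-ND6, at 42.7%, lies within the range of the other mRNAs, 39.6% to 47.7%.

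Library totals were 20994462 to 25981097 reads. TET1 had 17883 and 20805 reads in OE 1 and 2, at most 8 in any KO library, at most 1 in Lipo and at most 7 in WT, so its reads check the OE label and cannot check the knockout. Over all genes WT 1 stood apart from WT 2 and WT 3 (chi-square per degree of freedom 42.7 and 46.5, against 6.37 between WT 2 and WT 3), while the KO libraries differed from each other by 39.6 to 65.0. The OE pair differed by 4.87 and the Lipo pair by 6.17. The spread was thus unequal between groups, while the tests below use 1 spread per gene for all groups. Markers of lung epithelium summed to 9139 to 13763 CPM (reads per 1000000 of the scaled library size) per library. Of these, the surfactant gene SFTPC was at 0 in 9 of the 10 libraries and at 0.0866 CPM in the other. Fibroblast markers summed to 70.9 to 77.7 CPM in KO, 343 to 351 in OE, 169.6 to 182.8 in Lipo and 177 to 289 in WT, nearly all of it COL1A1 and LUM, with the marker DCN at 0 in every library. Leukocyte markers summed to at most 3.40 CPM in any library, and endothelial markers to 82.6 to 117 CPM, nearly all KDR, with PECAM1 and VWF at most 1.20 CPM.

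Mitochondrial genes took 5.44%, 5.83% and 7.25% of reads in KO 1 to 3, 4.89% and 4.74% in OE 1 and 2, 8.72% and 8.04% in Lipo 2 and 3, and 5.47%, 5.50% and 6.15% in WT 1 to 3. Both Lipo libraries were above every other library and both OE libraries below every other, while KO and WT overlapped. The share is a sum over the members and was not tested. In bulk RNA, fewer cells rich in mitochondria and less mitochondrial RNA per cell cannot be told apart.

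Messenger RNAs made up 86.6% to 92.9% of the mitochondrial reads, rRNAs 7.03% to 13.4% and tRNAs 0.0343% to 0.0755%. Per kilobase of gene, mean levels in WT were highest for MT-ATP8 (8710.0 ± 1719.9 CPM per kilobase, SD, n = 3) and MT-CO2 (8485 ± 480.4), which did not differ beyond their spread. They are a subunit of the ATP synthase and one of cytochrome c oxidase. Among the heavy-strand mRNAs, MT-CYB, the cytochrome b of complex III, had the lowest WT level, 1903 ± 256 CPM per kilobase. MT-ND6, a membrane subunit of complex I, was at 79.97 ± 1.99 CPM per kilobase in WT, below every other mRNA. The rRNAs were at 3030.2 ± 196 (MT-RNR2, of the large ribosomal subunit) and 623 ± 10.4 CPM per kilobase (MT-RNR1, of the small one). Whether rRNA was depleted before sequencing is not given in the sources used here, so these are levels in the libraries and not in the cell.

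**Figure D1:**
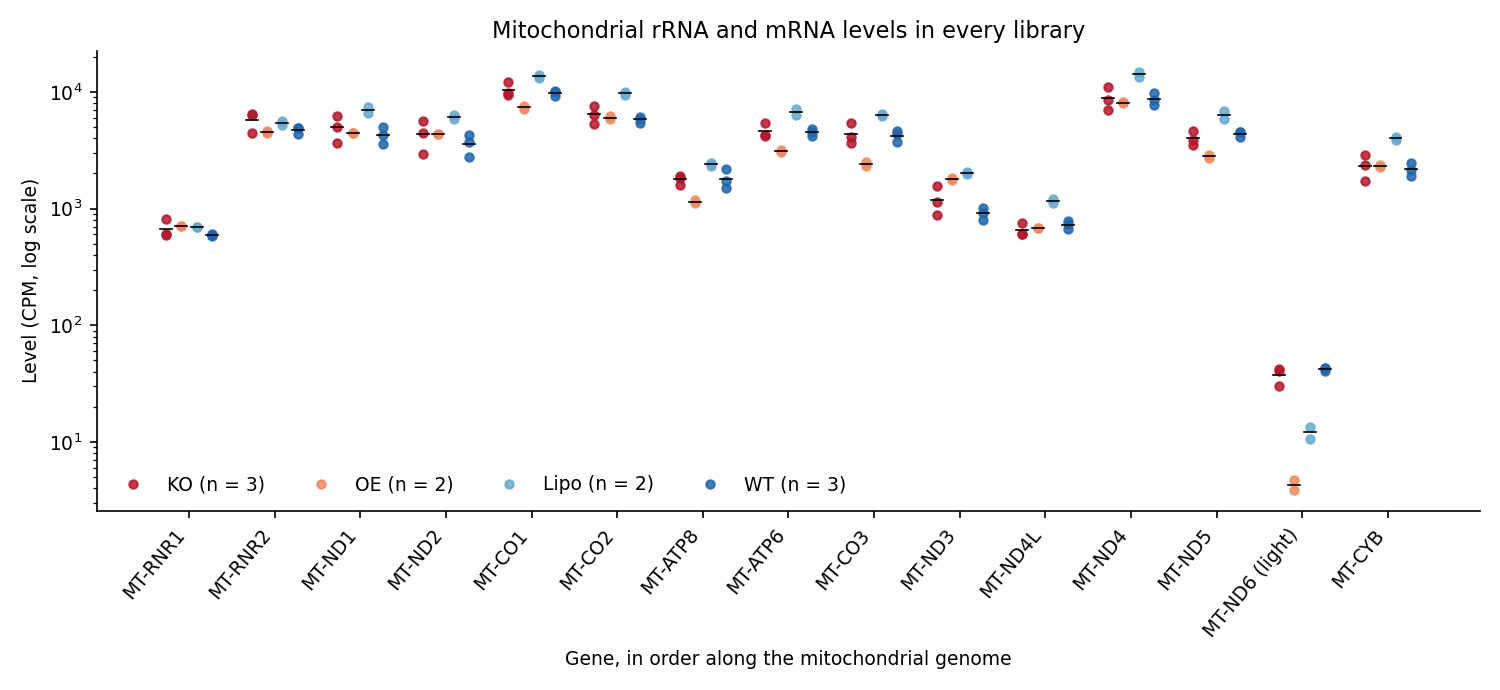
Level of the 2 rRNAs and 13 mRNAs in every library, in CPM on a log axis, in gene order; dots are libraries, black bars group means. MT-ND6, the light-strand mRNA, lies between 3.86 and 42.6 CPM, far under the heavy-strand mRNAs, and is lowest in OE and next lowest in Lipo.

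MT-ND6 (ENSG00000198695, chrM:14149-14673, minus strand) set OE and Lipo apart from the other groups. It stood at 41.9, 30.0 and 40.2 CPM in KO 1 to 3, 4.73 and 3.86 in OE 1 and 2, 13.5 and 10.6 in Lipo 2 and 3, and 40.8, 42.5 and 42.6 in WT 1 to 3. These levels rest on 767 to 950 reads per KO library, 84 and 96 per OE library, 232 and 324 per Lipo library and 942 to 1114 per WT library. The order was thus OE, then Lipo, then KO and WT, with no overlap between OE, Lipo and the rest. KO and WT overlapped, and KO 2 lay furthest below the WT libraries.

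In the edgeR quasi-likelihood test over 15832 genes, with Benjamini-Hochberg adjustment, MT-ND6 fell 2.80-fold in OE against Lipo (log2 -1.49, SE 0.22, adjusted p = 3.43e-04). It fell 3.49-fold in Lipo against WT (log2 -1.80, SE 0.19, adjusted p = 4.31e-04). Against WT, OE was 9.77-fold lower (log2 -3.29, SE 0.21, adjusted p = 3.62e-08). These 3 comparisons share the Lipo, OE or WT libraries in pairs and are not independent of each other. In KO against WT the log2 difference was -0.17 (SE 0.16, adjusted p = 0.546), and it was 0.32 (adjusted p = 0.682) when all 5 libraries labelled wild type served as control. The 3 calls passed the test in every alternative run, each left-out library included.

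Set against the other strand, the same order appeared. MT-ND6 had 92.6, 58.2 and 61.6 reads per 100000 heavy-strand mRNA reads in KO 1 to 3, 10.5 and 8.84 in OE, 16.3 and 13.8 in Lipo, and 85.3, 85.9 and 77.1 in WT. KO 1 was above every WT library and KO 2 and 3 below, while OE, Lipo and WT did not overlap. The ratio does not depend on library scaling. It was 1.56-fold lower in OE than in Lipo (log2 -0.64, exact two-sided permutation p = 0.33, the smallest that 2 against 2 libraries allow). It was 5.51-fold lower in Lipo than in WT (log2 -2.46) and 8.59-fold lower in OE than in WT (log2 -3.10), each with an exact permutation p = 0.2, the smallest possible for 2 against 3. In KO it was 1.19-fold lower than in WT (log2 -0.26, exact permutation p = 0.4, with 0.1 the smallest possible).

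The summed heavy-strand mRNA level was ordered differently. The 12 heavy-strand mRNAs summed to 54016.5 ± 10238 CPM in KO (SD, n = 3), 44432 ± 1057 in OE (n = 2), 79714 ± 4557 in Lipo (n = 2) and 50880.3 ± 3918 in WT (n = 3). Lipo was thus the group with the highest heavy-strand sum and, after OE, the lowest MT-ND6.

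**Figure D2:**
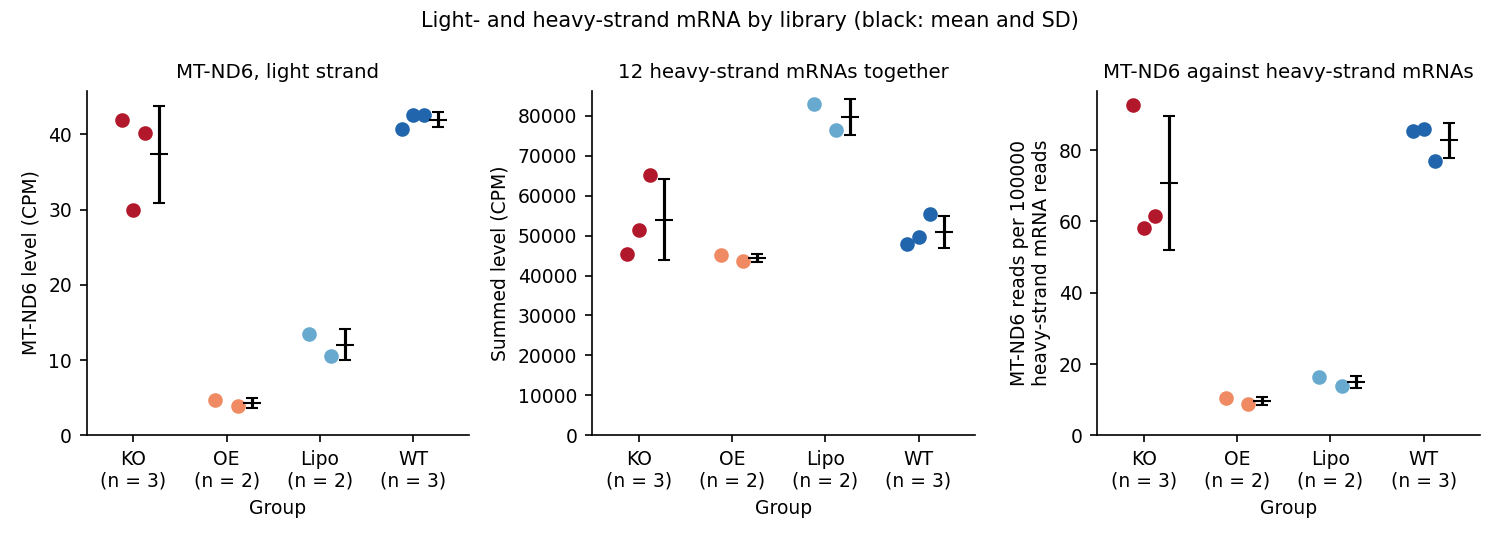
MT-ND6 level in CPM, summed level of the 12 heavy-strand mRNAs in CPM, and MT-ND6 reads per 100000 heavy-strand mRNA reads, per library (dots) with group mean and SD (black). MT-ND6 is at 10.6 to 13.5 CPM in Lipo against 40.8 to 42.6 in WT, while the heavy-strand sum is higher in both Lipo libraries than in any WT library.

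The light-strand tRNAs were few in number but were counted separately from MT-ND6. The 8 together had 36, 19 and 26 reads in KO 1 to 3, 1 and 5 in OE 1 and 2, 4 and 2 in Lipo 2 and 3, and 20, 39 and 17 in WT 1 to 3. Every OE and Lipo library was below every KO and WT library. The WT level was 8.07 times that of Lipo (exact 95% interval 3.54 to 22.7) and 7.38 times that of OE (3.24 to 20.7), intervals that cover counting error only. Between OE and Lipo, each with 6 reads in all, no difference was detectable at this depth (Lipo to OE ratio 0.914, interval 0.244 to 3.42). KO had 81 reads and WT 76 (WT to KO ratio 0.928, interval 0.670 to 1.29). The 14 heavy-strand tRNAs together had 459 to 1018 reads per library.

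A gene and transcripts of its opposite strand can be separated only where counting used strand. The library kit keeps strand, but whether the counting did is not given in the sources used here, so MT-ND6 and light-strand tRNA values may include reads from the opposite strand.

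For added TET1, OE was compared with Lipo. The labels put Lipo under no treatment and name no group given a plasmid without TET1. Effects of TET1, of the plasmid and of transfection thus cannot be told apart here. Of the 37 members, 22 passed the filter on low counts, namely 13 mRNAs, 2 rRNAs and 7 tRNAs. In OE, 11 of these 22 fell and 0 rose, where 5.53% of all genes tested fell, 6.79% rose and 12.3% did either. No member was higher at an unadjusted p under 0.05 or by DESeq2 either. The median log2 difference was -0.73 over the 22 members, -0.82 over the 13 mRNAs and -0.01 over all genes tested.

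The heavy-strand mRNA that differed most was MT-CO3 (ENSG00000198938, chrM:9207-9990), a core subunit of cytochrome c oxidase. It stood at 2491 and 2325 CPM in OE 1 and 2, against 6406 and 6238 CPM in Lipo 2 and 3. It fell 2.63-fold (log2 -1.39, SE 0.17, edgeR adjusted p = 6.56e-05). MT-ND3, a complex I subunit whose gene follows MT-CO3 after a single tRNA gene, stood at 1818 and 1751 CPM in OE and 1993 and 2070 CPM in Lipo. Its log2 difference was -0.19 (SE 0.20, adjusted p = 0.606).

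The ATP synthase subunits MT-ATP6 and MT-ATP8, just ahead of MT-CO3 on the genome, ranked 3 and 4 in size of change among the 12 heavy-strand mRNAs, after MT-CO3 and MT-ND5. MT-ATP6 was at 3148 and 3034 CPM in OE, against 7187 and 6386 in Lipo (log2 -1.13, SE 0.15, edgeR adjusted p = 1.47e-04). MT-ATP8 was at 1173 and 1120.1 CPM in OE, against 2474 and 2309.6 in Lipo (log2 -1.06, SE 0.17, adjusted p = 6.79e-04). These neighbours overlap each other, and MT-ATP6 also shares 1 base with MT-CO3.

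Complex I mRNAs were spread more widely. MT-ND5, the longest mRNA, was at 2867 and 2730.4 CPM in OE against 6892 and 5875 in Lipo and fell by 1.19 on the log2 scale (edgeR adjusted p = 8.73e-05). MT-ND4 was at 8144 and 7972 CPM in OE against 14910.5 and 13497 in Lipo and fell by 0.82 (adjusted p = 0.00925). MT-ND4L, which overlaps MT-ND4 by 7 bases, was at 685 and 677 CPM in OE against 1219 and 1115 in Lipo and fell by 0.78 (adjusted p = 0.00237). All 3 lie downstream of MT-ND3, which did not pass the test. MT-ND1 was at 4447 and 4415 CPM in OE against 7425 and 6657 in Lipo and fell by 0.67 (adjusted p = 0.0472). MT-ND2, at 4325.5 and 4348.5 CPM in OE against 6300 and 5843 in Lipo, did not pass the test (log2 -0.49, adjusted p = 0.213).

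The remaining heavy-strand mRNAs were also lower in OE than in Lipo. MT-CO1, the catalytic subunit of cytochrome c oxidase, was at 7549 and 7186 CPM in OE against 13947 and 13269.8 in Lipo (log2 -0.89, edgeR adjusted p = 9.67e-04). MT-CO2, which takes electrons from cytochrome c, was at 6192 and 5872 CPM in OE against 10047 and 9377 in Lipo (log2 -0.69, adjusted p = 0.00968). MT-CYB was at 2339 and 2254 CPM in OE against 4137 and 3854 in Lipo (log2 -0.80, adjusted p = 0.0147). In each of the 12 heavy-strand mRNAs both OE libraries lay below both Lipo libraries. The share of all genes separated in this way was not counted, so this describes the libraries and is not a result about the members. These mRNAs also come from shared precursors, so they are not separate observations. The differences also depend on the level in Lipo. MT-ND1, MT-CO2, MT-CYB, MT-ND4 and MT-ND4L were higher in Lipo than in WT (log2 0.68 to 0.88). In OE against WT the same mRNAs did not pass (log2 -0.11 to 0.08). MT-CO3, MT-ATP8, MT-ND5, MT-ATP6 and MT-CO1 fell in OE against WT too (log2 -0.81 to -0.40).

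The rRNAs, copied from the same strand, did not pass the test. MT-RNR1 stood at 711 and 703 CPM in OE, against 689.8 and 697 in Lipo (log2 0.03, SE 0.15, edgeR adjusted p = 0.936). MT-RNR2 stood at 4664 and 4465 CPM in OE, against 5587 and 5238 in Lipo (log2 -0.25, SE 0.17, adjusted p = 0.389). The log2 ratio of rRNA to mRNA reads was higher in OE than in Lipo by 0.63, a value with no test.

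The count of 11 depended on the control, on single libraries and on which groups were fitted. It was 7 without OE 1, without OE 2 or without Lipo 2, and 6 with all 5 libraries labelled wild type as control. It was 14 when only OE and Lipo were fitted, and 12 with no filter on low counts. MT-ND6, MT-CO3, MT-ND5, MT-ATP6, MT-ATP8 and MT-CO1 passed in all 21 alternatives.

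**Figure D3:**
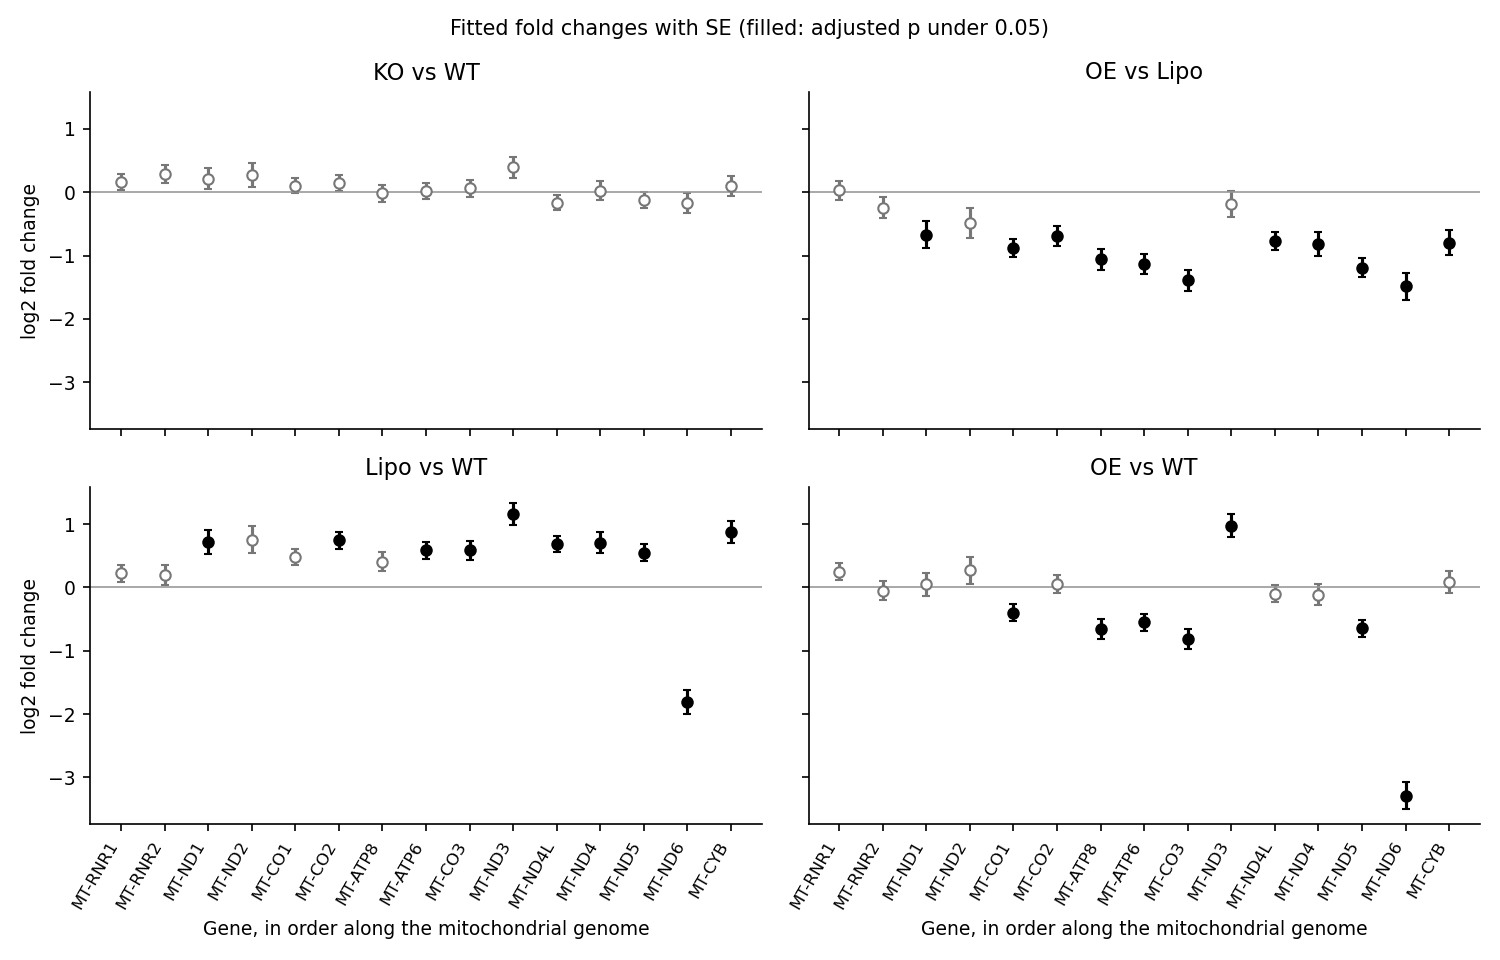
Fitted log2 fold change with SE (edgeR) of the 2 rRNAs and 13 mRNAs in gene order, for 4 comparisons; filled symbols passed at an adjusted p under 0.05. In OE vs Lipo, values run from 0.03 for MT-RNR1 to -1.49 for MT-ND6, with MT-ND3 at -0.19 beside MT-CO3 at -1.39.

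The contrast between MT-CO3 and MT-ND3 was looked at after their values had been seen, and it has no test. There were 4.20, 3.59 and 3.47 MT-CO3 reads per MT-ND3 read in KO 1 to 3, 1.37 and 1.33 in OE, 3.21 and 3.01 in Lipo, and 4.63, 4.70 and 4.58 in WT. The 4 groups did not overlap, with WT highest and OE lowest. This ratio does not depend on library scaling, and MT-ND3 has no read on a nuclear copy in the table while copies of MT-CO3 had 121 reads in all.

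**Figure D4:**
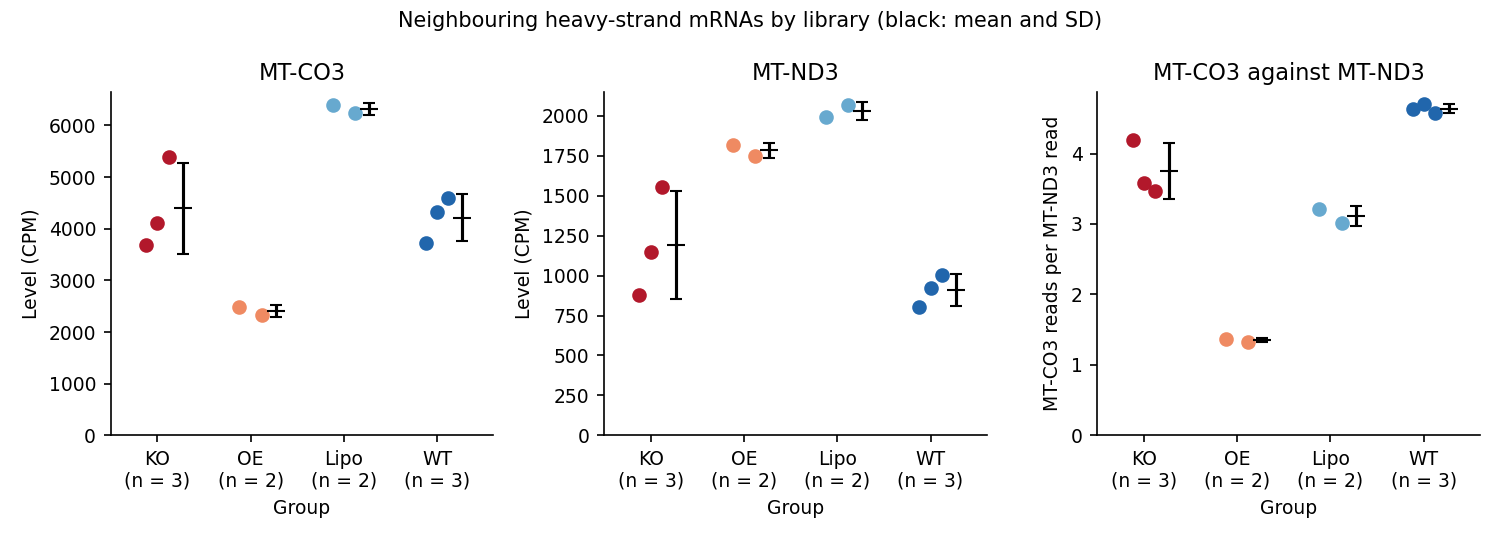
Levels of the neighbouring mRNAs MT-CO3 and MT-ND3 in CPM, and MT-CO3 reads per MT-ND3 read, per library (dots) with group mean and SD (black). OE has the lowest MT-CO3 (2325 and 2491 CPM), while its MT-ND3 (1751 and 1818 CPM) lies near Lipo and above WT.

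Lipo was next compared with WT, since the labels call both wild type. In Lipo 10 of the 22 members rose and 1, MT-ND6, fell, where 1.32% of all genes tested rose, 2.38% fell and 3.7% did either. The median log2 difference was 0.58 over the 22 members and 0.69 over the 12 heavy-strand mRNAs, against -0.02 over all genes tested. MT-ND3 rose most among the mRNAs, to 1993 and 2070 CPM in Lipo against 804, 920.4 and 1004 in WT (log2 1.16, SE 0.18, edgeR adjusted p = 0.00331). MT-CYB followed, at 4137 and 3854 CPM in Lipo against 1897, 2140.4 and 2478 in WT (log2 0.88, SE 0.17, adjusted p = 0.0123).

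The other 7 mRNAs that rose in Lipo had log2 differences of 0.54 to 0.74. MT-CO2 was at 10047 and 9377 CPM in Lipo against 5853, 5454 and 6106 in WT, and MT-ND1 at 7425 and 6657 against 3591, 4311 and 4958. MT-ND4 was at 14910.5 and 13497 CPM in Lipo against 7679, 8603 and 9858 in WT, and MT-ND4L at 1219 and 1115 against 669, 734 and 781. MT-ND5 was at 6892 and 5875 CPM in Lipo against 4499, 4095 and 4533 in WT, and MT-ATP6 at 7187 and 6386 against 4171, 4572 and 4845.5. MT-CO3 was at 6406 and 6238 CPM in Lipo against 3721, 4329.5 and 4596 in WT. These 7 had edgeR adjusted p-values of 0.00927 (MT-CO2) to 0.0466 (MT-CO3). MT-ND2, MT-CO1 and MT-ATP8 did not pass (log2 0.75, 0.48 and 0.41, lowest edgeR adjusted p = 0.0562), nor did the rRNAs.

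The count of members that rose in Lipo rests on few libraries. It was 0 without Lipo 3, 1 without Lipo 2, 4 without OE 1, OE 2 or WT 2, and 6 without WT 3. The log2 differences of these 10 kept their sign in all 20 alternatives, and MT-ND6 passed in each.

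OE against WT gave changes in both directions among the heavy-strand mRNAs. Of the 22 members, 3 rose and 7 fell, where 12.3% of all genes tested rose, 12.6% fell and 25% did either, so the number that rose is near the background. MT-ND3 rose to 1818 and 1751 CPM in OE against 804, 920.4 and 1004 in WT (log2 0.97, SE 0.18, edgeR adjusted p = 0.00139). MT-CO3 fell to 2491 and 2325 CPM in OE against 3721, 4329.5 and 4596 in WT (log2 -0.81, SE 0.16, adjusted p = 0.00192). MT-ATP8, MT-ND5, MT-ATP6 and MT-CO1 fell by 0.65, 0.64, 0.55 and 0.40 (largest adjusted p = 0.0387), and the other 6 heavy-strand mRNAs had log2 differences of -0.11 to 0.27. MT-ND6 and the tRNA MT-TQ make up the rest of the 7, and MT-TQ met the filter on low counts only through KO and WT. The number that fell was 3 without OE 1 and 2 without OE 2, and the number that rose was 1 without OE 1, OE 2 or WT 2.

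To ask what the labelled knockout changed, KO was compared with WT. No mRNA or rRNA passed the test, and 2 of the 22 members, both tRNAs, rose, where 5.13% of all genes tested rose, 7.45% fell and 12.6% did either. The number that rose is thus near the background. The number of members that fell was 0, also at an unadjusted p under 0.05 and by DESeq2. MT-ND3 was the 1 mRNA with an unadjusted p under 0.05. The 12 heavy-strand mRNAs had log2 differences of -0.16 (MT-ND4L) to 0.39 (MT-ND3, edgeR adjusted p = 0.140). MT-ND3 was at 877, 1147 and 1553 CPM in KO against 804, 920.4 and 1004 in WT, overlapping. MT-ND4L was at 605, 600.3 and 746 CPM in KO against 669, 734 and 781 in WT, also overlapping. Between same-numbered libraries, however, MT-ND3 was higher and MT-ND4L lower in KO each time. The labels do not say whether the numbers pair the libraries. MT-ND3 passed when the replicate number was added as a block to the fit of all libraries (log2 0.36, edgeR adjusted p = 0.0362). It also passed in such a fit of KO and WT alone (log2 0.37, edgeR adjusted p = 0.0250). KO 3 was the highest KO library for 11 of the 12 heavy-strand mRNAs, MT-ATP8 being the exception, and KO 1 the lowest for 9.

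The other complex I mRNAs and MT-CYB were also spread widely within KO. MT-ND1 was at 3638, 4999 and 6268 CPM in KO, against 3591, 4311 and 4958 in WT. MT-ND2 was at 2957, 4412 and 5648 CPM in KO, against 2787, 3747 and 4272 in WT. MT-CYB was at 1738, 2349 and 2902 CPM in KO, against 1897, 2140.4 and 2478 in WT. In these 3 mRNAs KO 3 was above every WT library, and KO 1 was within the WT range or below it. MT-ND4 was at 7060.3, 8449.6 and 11049 CPM in KO, against 7679, 8603 and 9858 in WT. MT-ND5 was at 3898, 3514 and 4632 CPM in KO, against 4499, 4095 and 4533 in WT. For both, KO 1 and KO 2 lay below at least 1 WT library and KO 3 above all of them.

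The cytochrome c oxidase and ATP synthase subunits overlapped between the groups as well. MT-CO1 was at 9428, 9722 and 12278.5 CPM in KO, against 9946, 9136 and 10142 in WT. MT-CO2 was at 5315, 6349 and 7587 CPM in KO, against 5853, 5454 and 6106 in WT. MT-CO3 was at 3683, 4114 and 5386 CPM in KO, against 3721, 4329.5 and 4596 in WT. KO 3 was above every WT library for each of them. MT-ATP6 was at 4168, 4235 and 5393 CPM in KO, against 4171, 4572 and 4845.5 in WT. MT-ATP8 was at 1916, 1590.5 and 1842 CPM in KO, against 2193, 1495 and 1722 in WT. MT-ATP8 was highest in KO 1 among KO and in WT 1 among WT.

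The rRNAs in KO were at 602, 589 and 806 CPM (MT-RNR1) against 596, 584 and 603 in WT, and at 6394.5, 4399.9 and 6508 CPM (MT-RNR2) against 4918, 4372 and 4882 in WT. KO 1 and KO 3 were above the WT libraries for MT-RNR2 and KO 2 was not, and the test was not passed (log2 0.29, SE 0.14, edgeR adjusted p = 0.198).

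The KO effect and the OE effect rest on different libraries, and their difference (KO over WT, less OE over Lipo) was tested in the same edgeR fit. Of the 22 members, 11 had a higher log2 effect in KO than in OE and 0 a lower one, where 7.16% of all genes tested were higher, 9.47% lower and 16.6% either. At an unadjusted p under 0.05 and by DESeq2, 0 were lower. The 11 were all mRNAs, with MT-ND2 and MT-ND3 the exceptions among the 13. Their number was 7 without OE 1 or Lipo 3 and 6 without OE 2 or Lipo 2, and the median difference was 0.90 over the 13 mRNAs and -0.01 over all genes tested.

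Of the 22 tRNAs, 3 had a mean of at least 100 reads per library. Transfer RNA genes are short, and how reads that cross gene borders were counted is not given in the sources used here. MT-TT, the threonine tRNA (ENSG00000210195, chrM:15888-15953), was at 13.5, 19.9 and 25.6 CPM in KO, 21.2 and 18.1 in OE, 24.7 and 19.0 in Lipo and 13.1, 9.28 and 10.2 in WT. Every library of the other groups was above every WT library. It rose in KO (log2 0.86, SE 0.22, edgeR adjusted p = 0.0184), in OE against WT (0.86, SE 0.24, adjusted p = 0.0181) and in Lipo against WT (1.01, SE 0.24, adjusted p = 0.0313), all against the same WT libraries. The KO call was lost without KO 2, KO 3, WT 2 or WT 3 (adjusted p = 0.0519 to 0.0940).

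MT-TL1, a leucine tRNA next to MT-RNR2 (ENSG00000209082, chrM:3230-3304), was at 5.38, 10.4 and 11.7 CPM in KO, 10.2 and 9.75 in OE, 9.62 and 8.30 in Lipo and 3.94, 5.31 and 6.003 in WT. KO 1 lay within the WT range and the other libraries above it. It rose in KO (log2 0.85, SE 0.26, edgeR adjusted p = 0.0454) and in OE against WT (0.97, SE 0.29, adjusted p = 0.0231), and did not pass in Lipo against WT (0.82, SE 0.29, adjusted p = 0.137). The KO call was lost when any 1 library other than KO 1 was left out (adjusted p = 0.0615 to 0.173). MT-TV, the valine tRNA between the rRNAs, was at 4.81, 5.35 and 4.89 CPM in KO, 4.88 and 6.16 in OE, 4.16 and 3.42 in Lipo and 5.02, 4.01 and 2.89 in WT, and passed in no comparison.

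The 4 remaining tRNAs that were tested had at most 47 reads in a library. MT-TQ, the light-strand glutamine tRNA, had 1 read in OE and 34 in WT (WT to OE ratio 19.8, exact 95% interval 3.32 to 806). It passed in OE against WT (edgeR adjusted p = 0.0456) but in only 9 of 18 alternatives. With at most 1 read in an OE library and 3 in a Lipo library, it met the filter on low counts only through KO and WT. The gene was thus kept because of the groups in which it is high, and the call is no support for a fall. MT-TP, the light-strand proline tRNA, had 42 reads in KO, 4 in OE, 2 in Lipo and 24 in WT. The heavy-strand tRNAs MT-TW (tryptophan) and MT-TH (histidine) had 75 and 30 reads in KO, 29 and 12 in OE, 62 and 7 in Lipo, and 19 and 12 in WT. Of the 15 tRNAs not tested, 5 (MT-TN, MT-TC, MT-TG, MT-TR and MT-TS2) had no read in any library, where a count of 0 allows up to 0.148 CPM per library, and the other 10 had at most 9 reads in any library.

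Nuclear genes that serve the same genome were taken from lists chosen with earlier results of these data known. Of all genes tested, 6.79% rose and 5.53% fell in OE against Lipo, and 1.32% and 2.38% in Lipo against WT. In OE against WT 12.3% rose and 12.6% fell, and in KO 5.13% and 7.45%, shares to set beside each list. Of 3 genes of mitochondrial RNA decay, 1 rose in OE against Lipo. PNPT1, the exonuclease named above, was at 55.0, 42.8 and 39.3 CPM in KO, 172 and 174 in OE, 38.1 and 38.0 in Lipo and 55.3, 44.4 and 44.1 in WT, so both OE libraries were far above all others. It rose 4.55-fold in OE against Lipo (log2 2.19, SE 0.18, edgeR adjusted p = 8.90e-07) and did not pass in Lipo against WT (log2 -0.33, adjusted p = 0.285). Its partner SUPV3L1 averaged 28.2 ± 1.72 CPM in KO, 42.0 ± 0.751 in OE, 35.1 ± 0.954 in Lipo and 28.1 ± 1.23 in WT, with a log2 difference of 0.26 in OE against Lipo (adjusted p = 0.292). Against WT, both PNPT1 (log2 1.85, adjusted p = 7.66e-07) and SUPV3L1 (0.58, adjusted p = 0.00625) rose in OE. In KO against WT, 1 of the 3 rose, the oligoribonuclease REXO2 (log2 0.60, adjusted p = 0.0417). PNPT1 and MT-ND6 thus moved in opposite directions in OE against Lipo, but not in Lipo against WT, and any part of PNPT1 in the result was not tested.

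Of 16 genes of mitochondrial DNA transcription and replication, 1 rose and 0 fell in OE against Lipo by edgeR (median log2 -0.07, against -0.01 over all genes), while 1 was lower at an unadjusted p under 0.05 and 0 by DESeq2. It was TWNK, the replicative helicase, at 65.0 ± 2.89 CPM in OE and 30.7 ± 0.181 in Lipo (log2 1.08, SE 0.15, edgeR adjusted p = 2.71e-04). In Lipo against WT 1 fell, MTERF4, a partner of the rRNA methyltransferase NSUN4 (log2 -0.79, adjusted p = 0.0119). In KO, 2 rose, the exonuclease MGME1 (log2 0.72, adjusted p = 0.00190) and MTERF3 (log2 0.53, adjusted p = 0.0379). The transcription factor TFAM passed in none of the 4 comparisons (log2 -0.22 in KO, -0.15 in OE against Lipo, 0.03 in Lipo against WT and -0.11 in OE against WT).

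Of 22 genes of mitochondrial RNA processing and stability, 1 rose in OE against Lipo by edgeR, NSUN4 (log2 0.66, edgeR adjusted p = 0.0170). By DESeq2 2 rose, and at an unadjusted p under 0.05 6 were higher and 1 lower. The median log2 difference of the list was 0.28, against -0.01 over all genes. In Lipo against WT 0 passed by edgeR or DESeq2, with 1 lower at an unadjusted p under 0.05. In OE against WT, 6 rose, where 12.3% of all genes tested rose, with SLIRP, HSD17B10, MRM3 and TBRG4 lowest in p (log2 0.62 to 0.70). In KO, SLIRP, a stem-loop binding protein that keeps mitochondrial mRNAs stable, rose (log2 0.88, adjusted p = 9.93e-04) and ELAC2, which cuts the 3′ ends of tRNAs, fell (log2 -0.47, adjusted p = 0.0109). Among 6 regulators of mitochondrial biogenesis, 0 passed in KO, OE against Lipo or Lipo against WT by edgeR or DESeq2. At an unadjusted p under 0.05, 2 were higher in KO, 1 in OE against Lipo and 3 in Lipo against WT. In OE against WT 2 rose by edgeR and by DESeq2, PPRC1 (log2 0.59, edgeR adjusted p = 0.0155) and the nuclear receptor ESRRA (log2 0.55, adjusted p = 0.0280).

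Nuclear-encoded subunits of complexes I, III, IV and V, which assemble with the mitochondrially encoded ones, are given beside them. Of 70 tested, 0 rose in OE against Lipo (0 also at an unadjusted p under 0.05 and by DESeq2). By edgeR 1 fell, the ATP synthase subunit ATP5MC2 (log2 -0.91, edgeR adjusted p = 0.0437), while 2 were lower by DESeq2 and 5 at an unadjusted p under 0.05. In Lipo against WT 0 passed by edgeR, 2 were higher by DESeq2 and 17 at an unadjusted p under 0.05. In KO, 20 rose and 1 fell, where 5.13% of all genes tested rose and 7.45% fell (median log2 0.35, against 0.00 over all genes). Among those that rose were ATP5MC1 (log2 1.32, edgeR adjusted p = 1.70e-04), UQCRB (0.96, adjusted p = 0.00378) and NDUFB1 (0.90, adjusted p = 0.00608). The complex III subunit CYC1 was lower (-0.59, adjusted p = 0.00548). In KO none of the 13 mitochondrial mRNAs passed in the same fit, though MT-ND3 passed with the replicate number as a block.

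RNAs kept in the nucleus moved with MT-ND6 in some comparisons and not in others. Of 4 such RNAs, KCNQ1OT1 was at 0 in every library and MEG3 in all but 1, and the 4 summed to 1211 to 2648 CPM in KO, 926 to 945 in OE, 436 to 590 in Lipo and 1375 to 2832 in WT. MALAT1 was at 2057, 677 and 904 CPM in KO, 206 and 202 in OE, 223 and 169 in Lipo and 1848, 737 and 983 in WT. Like MT-ND6 it was lower in both OE and both Lipo libraries than in any KO or WT library, and it fell in Lipo against WT (log2 -2.60, SE 0.54, edgeR adjusted p = 0.0351) and in OE against WT (log2 -2.54, adjusted p = 0.00889). In OE against Lipo, where MT-ND6 fell, its log2 difference was 0.05 (adjusted p = 0.967). It was highest in KO 1 and WT 1. NEAT1 also fell in Lipo against WT (log2 -1.37, SE 0.18, adjusted p = 0.00119), but rose in OE against Lipo (log2 1.21, SE 0.19, adjusted p = 6.92e-04). It also fell in KO (log2 -0.50, adjusted p = 0.0468), where MT-ND6 did not pass, and did not pass in OE against WT (log2 -0.16, adjusted p = 0.527), where MT-ND6 fell. The part of these RNAs, or of a difference in RNA recovery, in the MT-ND6 result was not tested.

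Among the 11 lung epithelial markers, 9 were tested. Of these only the surfactant gene SFTPB fell where MT-ND6 fell, and it also fell in KO. SFTPB was at 39.1, 51.8 and 57.6 CPM in KO, 30.1 and 29.3 in OE, 74.7 and 77.1 in Lipo and 180.1, 185.7 and 217.9 in WT, and the 4 groups did not overlap. It fell in OE against Lipo (log2 -1.35, SE 0.18, edgeR adjusted p = 1.27e-04), in Lipo against WT (log2 -1.36, SE 0.16, adjusted p = 6.74e-04) and in OE against WT (log2 -2.71, adjusted p = 4.03e-08). It also fell in KO (log2 -1.97, adjusted p = 3.79e-07), where MT-ND6 did not pass. The marker KRT7 went the other way, and rose in OE against Lipo (log2 0.63, edgeR adjusted p = 0.0124) and in OE against WT (log2 0.41, adjusted p = 0.0369). Over the list, 1 marker rose and 1 fell in OE against Lipo, 1 fell in Lipo against WT, 1 rose and 1 fell in OE against WT and 3 fell in KO. The part of what SFTPB marks in the MT-ND6 result was not tested.

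**Figure D5:**
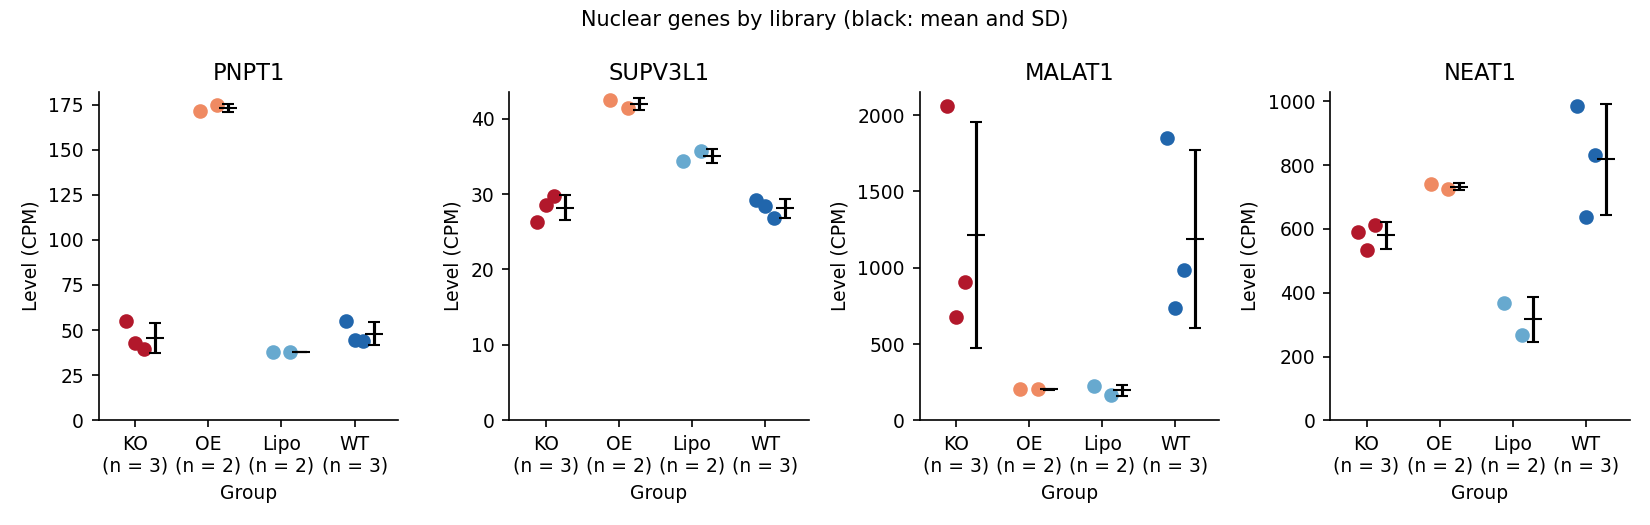
Levels in CPM of the mitochondrial RNA decay genes PNPT1 and SUPV3L1 and the nuclear-retained RNAs MALAT1 and NEAT1, per library (dots) with group mean and SD (black). PNPT1 is at 172 and 174 CPM in OE and at most 55.3 CPM elsewhere, and MALAT1 is at 169 to 223 CPM in OE and Lipo and at least 677 CPM in KO and WT.

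Nuclear copies of mitochondrial genes can take some of their reads. The table holds 402 such pseudogenes, of which 40 had a read, and they summed to 0.733% to 0.854% of the mitochondrial reads. The 3 with most reads were MTATP6P1 (61158 reads over all libraries, against 1096667 on MT-ATP6), MTCO1P40 (29267) and MTND2P28 (21845). Copies of MT-ND6 had 22 reads in all, against 6411 on MT-ND6. Adding the copies to their member left the number of members called the same in each of the 5 comparisons.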

How the data were processed

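RNA was measured in 10 libraries of H441 cells (3 KO, 2 OE, 2 Lipo, 3 WT), and grouping followed titles and treatment labels. Per the labels, libraries were made from total RNA with a low-input kit that keeps strand. FastQC, HISAT2 2.1.0, featureCounts, edgeR and the build GRCh38 are listed without roles, per the submitters' processing notes, and the strand setting is not given in the sources used here. The authors deposited raw read counts per gene, whole numbers with no normalization. Of 62710 entries, 1 had no values, and 2 columns matched no sample and were not used here. Library totals (20994462 to 25981097 reads) make counting error small for every mRNA but MT-ND6 in OE, and it is large for most tRNAs.

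Counts were fitted with edgeR 4.0.16 in R 4.3.3 (TMM scaling, filterByExpr, robust quasi-likelihood, all 10 libraries, 1 coefficient per group, 6 residual degrees of freedom). A check of the code on simulated counts used 1 dispersion for all genes, so it does not bear on the unequal spread between these libraries. Tests were two-sided, adjusted by Benjamini-Hochberg over 15832 genes, with a threshold of 0.05. CPM values use TMM-adjusted library sizes. OE was set against Lipo, whose titles differ from those of WT. Only the MT-ND6 ratio had an exact permutation test. Intervals and floors (3 counts for a count of 0) cover counting error only. Strand, position and sequence came from GENCODE release 29.

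Members and gene lists were chosen with earlier results of these data known. All members are accounted for. Values per library are printed for mRNAs, rRNAs and tRNAs with a mean of at least 100 reads, and per list up to 4 genes with the smallest p are named. TET1 and single marker genes are named as checks. Alternatives were RLE scaling, library size alone, scaling without the members, DESeq2 1.42.0, no filter and a stricter filter (1 CPM in 3 libraries and 100 reads), a fit of the compared groups alone, a block for the replicate number, all 5 wild-type-labelled libraries as control, nuclear copies added, and each library left out. Leaving out WT 1 and KO 1 together was chosen after seeing the data.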

Additional observations from a re-analysis of the deposited data

Results flagged for a closer look

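In 11 members the effect of KO over WT and the effect of OE over Lipo differed in a test of the difference itself (edgeR quasi-likelihood, adjusted over 15832 genes). The difference, in log2 units and KO less OE, was 1.45 for MT-CO3 (adjusted p = 3.41e-04), 1.32 for MT-ND6 (adjusted p = 0.00332), 1.16 for MT-ATP6, 1.07 for MT-ND5 and 1.04 for MT-ATP8. It was 0.99 for MT-CO1, 0.90 for MT-CYB, 0.88 for MT-ND1, 0.84 for MT-ND4, 0.83 for MT-CO2 and 0.61 for MT-ND4L, with adjusted p-values of up to 0.0350 among the 11. These are the same 11 members that were called lower in OE against Lipo, so the 2 results are not independent. None of the 11 passed in KO against WT, where the libraries of both groups overlapped. No sample of a group was tested as an outlier, since no group had more than 3 libraries.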

How the results depend on the processing

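The MT-ND6 calls in OE against Lipo, Lipo against WT, OE against WT and the KO less OE difference passed in every alternative run. The number of members higher in KO against WT, 2 as reported, was 4 with no filter on low counts, 1 with only the groups compared and 0 when Lipo and WT together (5 libraries) served as control, and ranged from 0 to 3 as each library was left out. In that comparison MT-ND6 was at -0.17 as reported and at 0.32 with all 5 as control, and passed in neither. The number lower in OE against Lipo was 11, 6 with all 5 as control and 14 with only the groups compared. As each library was left out it ranged from 7 to 11, against 0 to 13 for members higher in Lipo, 1 to 4 higher and 2 to 7 lower in OE against WT, and 6 to 16 for the KO less OE difference. The log2 ratio of tRNA to mRNA reads was 0.65 higher in KO than in WT and 0.88 higher without both WT 1 and KO 1.

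Replicate numbers are shared by KO and WT. The labels do not say whether the numbers pair the libraries, and the fit reported above did not pair them. Over all genes, same-numbered libraries deviated together with correlations of 0.33, 0.06 and 0.18. Each was the highest correlation of that KO library with a WT library, though WT 2 correlated more with KO 3 (0.09). Over the 13 mRNAs alone these were 0.77, 0.33 and 0.92, but KO 2 correlated more with WT 3 (0.81) and WT 2 more with KO 3 (0.68) than with each other. With the replicate number as a block, members higher in KO numbered 4 in the fit of KO and WT and 3 in the fit of all libraries, MT-ND3 being added in both (log2 0.37 and 0.36, edgeR adjusted p = 0.0250 and 0.0362) and MT-TW in the fit of KO and WT (adjusted p = 0.0493). In the fit of all libraries 10 were lower in OE against Lipo, and MT-ND6 kept each call. Over all genes, the block raised KO calls from 485 higher and 731 lower to 1584 and 1784 in the fit of KO and WT. In the fit of all libraries they went from 812 and 1180 to 1228 and 1646. The KO against WT results without a block thus depend on leaving the libraries unpaired. Scaling moved the median of all genes by less than 0.1 log2 units in each comparison. Depth limits the light-strand tRNAs, and 2 libraries per group limit OE and Lipo.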
